A study of Rattus norvegicus with 8 samples.

Results

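The 10 genes described here are Apoe, Aldoc, Gfap, Aqp4, Slc1a2, Slc1a3, Glul, Gja1, Clu and S100b, which are widely used to recognise astrocytes. They were taken by gene symbol from a table of polyadenylation sites in rat hypothalamus, where they held 107 of 73922 sites and were 10 of 12255 genes. Whole transcriptome termini site sequencing (WTTS-seq) reads the 3′ ends of polyadenylated RNA, so each count is a read at a 3′ end and a gene can have many sites. The 8 libraries came from adult male Long-Evans rats, 4 in a control group on standard chow and 4 in an obesity group with free access to a high fat diet, after 36 days. The labels name no transgene or other treatment in either group, and the hypothalamus was not divided into nuclei. In such bulk tissue, fewer cells of a type and less RNA per cell cannot be told apart.

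Astrocytes are the glial cells that clear transmitter from synapses, buffer potassium and water, and supply neurons with fuel and lipid. Glutamate enters the astrocyte through transporters, is converted to glutamine and is handed back to neurons. Astrocytes also secrete apolipoproteins, which carry cholesterol to other cells. A messenger RNA can end at alternative 3′ ends, and the choice between them sets the length of its untranslated tail or, for ends further upstream, its coding part.

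All 10 genes had reads in all 8 libraries. Library depth was 1417531 to 1957726 reads. Hypothalamic peptide genes were present in every library, with 809 to 1578 reads of Avp and 165 to 314 of Pmch. The libraries numbered 1 held 14788 (control) and 10659 (obesity) sites at 0 reads, against 4062 to 6622 in the others. Same-numbered libraries of the 2 groups deviated together, so a second fit with the library number as a block is given where it changed a call. What ties same-numbered libraries is not given in the labels, and p-values measure the spread between these libraries. Reads per library are listed below in the order of the library numbers, 1 to 4.

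Gene abundance is given in normalized counts (CPM), the read share of a gene after scaling libraries by the trimmed mean of M values. It counts 3′ ends and was not divided by length, since a transcript is in principle read once at its tail. Reads primed at internal A-rich stretches would add to the total of a gene. The order of mean gene CPM over the 8 libraries was S100b (1816), Apoe (1643), Aldoc (801.8), Gfap (412.4), Slc1a2 (277.5), Clu (276.6), Slc1a3 (246.1), Gja1 (234.6), Glul (108.1) and Aqp4 (18.7). S100b ranked 38 and Apoe 49 of all genes by reads. The library ranges of neighbours in this order overlapped down to Gja1, whereas Gja1 and Glul did not overlap, nor did Glul and Aqp4. Aqp4 rested on 206 reads over all libraries.

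The first comparison asked whether the total output of these genes differed between obesity and control. In the quasi-likelihood F test of edgeR 0 of 10 had an adjusted p under 0.1, where 0% of all genes were called. Aldoc alone had an unadjusted p under 0.05, against 5.12% of all genes (2.54% higher and 2.58% lower). With the block it was again Aldoc alone, against 10.9% of all genes. The DESeq2 Wald test also called 0 of 10, and its share of all genes is not given here. The control and obesity libraries overlapped for all 10 genes, while 3.45% of all genes did not overlap. Log2 fold changes (obesity over control) were below 0 for 6 genes and above 0 for 4, with a median of -0.16, beside 0.00 for all genes.

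**Figure D1:**
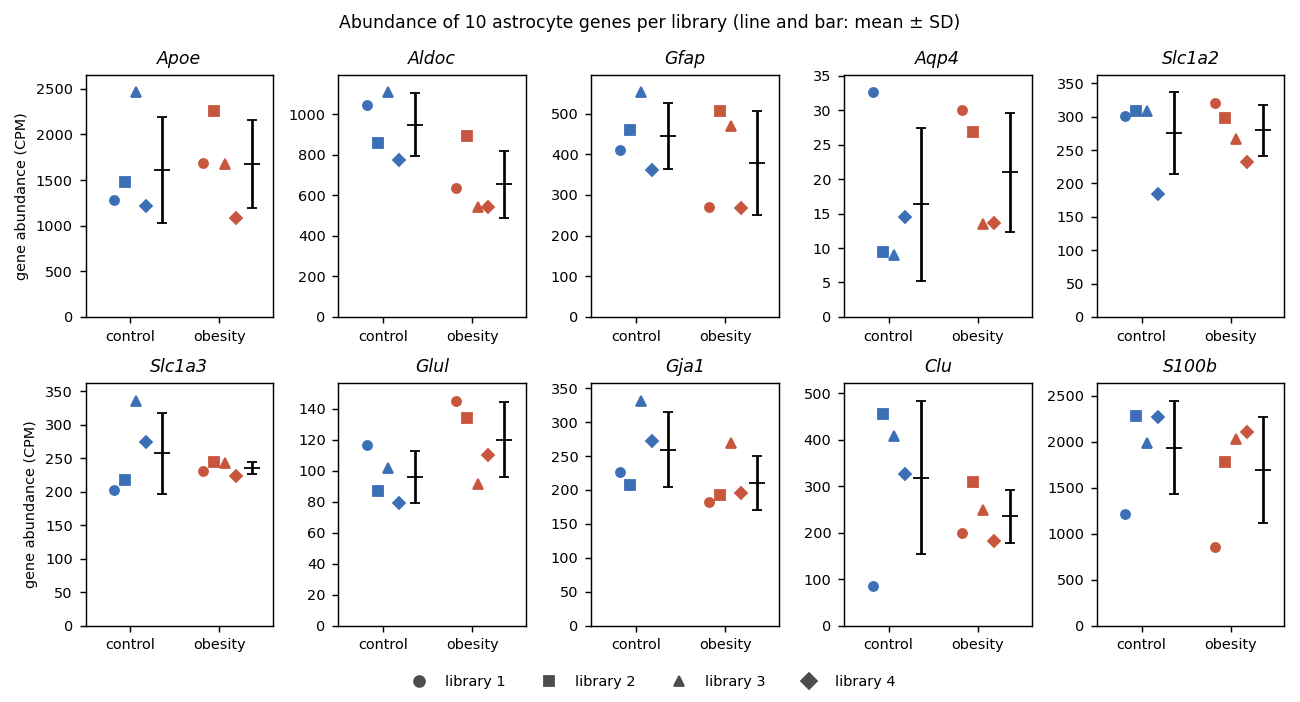
Gene abundance in CPM (vertical axes, starting at 0) of the 10 genes in 4 control and 4 obesity libraries, with the library number as marker shape and the mean ± SD beside each group. The groups overlapped in every panel, and for Aldoc only obesity library 2, at 892.9 CPM, reached the control range of 776.7 to 1109 CPM.

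Aldoc encodes aldolase C, the brain form of a glycolytic enzyme. Controls had 1479, 1286, 1364 and 1022 reads and obesity libraries 850, 1100, 931 and 800. In CPM, obesity libraries 1, 3 and 4 lay below all controls and obesity library 2 lay among them. The mitochondrial share of reads was likewise below all controls in obesity libraries 1, 3 and 4, at 5.32%, 5.94%, 8.27% and 6.23% in the controls and 4.29%, 6.99%, 3.85% and 4.34% in the obesity libraries, and its part in the Aldoc values was not tested. Abundance was 948.4 ± 155.7 CPM in control and 655.3 ± 164.4 CPM in obesity (SD, n = 4), a ratio of 0.691. The log2 fold change was -0.53 (SE 0.21), with an edgeR unadjusted p of 0.0196 and an adjusted p of 0.921. With the block it was -0.55 (SE 0.15) at an edgeR adjusted p of 0.144, in a fit that called 0.277% of all genes. Without both libraries numbered 2 the blocked log2 fold change was -0.75, at an edgeR adjusted p of 0.0019, while over all alternatives it ranged from 0.0019 to 0.9999. The fit without number 2 leaves out the obesity library that lay among the controls. It also called 10 genes of the other lists, where the blocked fit with all libraries called 0. The share of all genes called in it is not given here.

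Apoe encodes apolipoprotein E, the main lipid carrier made by astrocytes. Controls had 1809, 2218, 3027 and 1603 reads and obesity libraries 2244, 2784, 2854 and 1591. Both groups spanned a similar range. Abundance was 1611 ± 577.4 CPM in control and 1675 ± 480.6 CPM in obesity (SD, n = 4), so that the log2 fold change was 0.06 (SE 0.25). Its sign turned when control library 1, control library 4 or obesity library 2 was left out.

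Clu encodes clusterin, or apolipoprotein J, a secreted chaperone and lipid carrier. Controls had 120, 680, 502 and 428 reads and obesity libraries 266, 381, 425 and 267. Control library 1 was the lowest of all 8, and the other 3 controls, at 325.3 to 455.0 CPM, lay above every obesity library. The log2 fold change was -0.44 (SE 0.40), and -0.75 without control library 1. In the blocked fit without both libraries numbered 1 the edgeR adjusted p was 0.0734, against 0.832 with all 8 libraries and up to 0.9999 over all alternatives. The share of all genes called in the fit without number 1 is not given here.

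The genes of glutamate handling overlapped between groups. Slc1a2 encodes the glutamate transporter GLT-1 and had 275.5 ± 60.7 CPM in control and 279.5 ± 38.3 CPM in obesity (SD, n = 4). Slc1a3 encodes the transporter GLAST and had 257.2 ± 60.4 CPM in control and 235.1 ± 9.51 CPM in obesity. Their log2 fold changes were 0.02 (SE 0.21) and -0.13 (SE 0.20). Glul encodes glutamine synthetase, which turns glutamate into glutamine. Controls had 165, 130, 125 and 104 reads and obesity libraries 193, 165, 156 and 162. In CPM it was higher in obesity in 3 of 4 pairs, with a log2 fold change of 0.32 (SE 0.23) and an edgeR adjusted p of 0.942.

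The structural and signalling genes also overlapped. Gfap encodes the intermediate filament by which reactive astrocytes are usually scored. Controls had 579, 687, 679 and 476 reads and obesity libraries 360, 625, 803 and 393. In CPM obesity libraries 1 and 4 lay below all controls, and obesity libraries 2 and 3 lay among them (log2 fold change -0.23, SE 0.24). S100b, a calcium-binding protein of astrocytes, had 1938 ± 503.6 CPM in control and 1693 ± 574.1 CPM in obesity (log2 fold change -0.19, SE 0.27). Its lowest library was number 1 in both groups, at 1210 CPM in control and 857.0 CPM in obesity.

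Of the channel genes, Gja1 encodes connexin 43, which couples astrocytes through gap junctions. Each of 4 pairs had the lower value in obesity, at 259.1 ± 55.3 CPM in control and 210.1 ± 40.0 CPM in obesity (SD, n = 4). How many of all genes did so is not given here. The log2 fold change was -0.30 (SE 0.22), with an edgeR adjusted p of 0.942. Aqp4 encodes the water channel of astrocyte endfeet. Controls had 46, 14, 11 and 19 reads and obesity libraries 40, 33, 23 and 20, with library 1 highest in both groups (log2 fold change 0.35, SE 0.49).

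**Figure D2:**
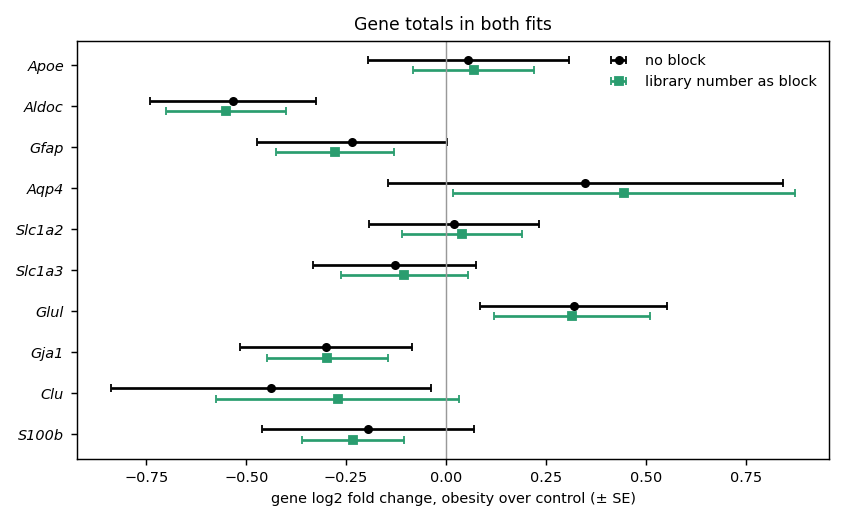
Log2 fold change of gene totals, obesity over control (horizontal axis), with bars of 1 standard error, in the fit without a block (circles) and with the library number as a block (squares). Aldoc lay farthest below 0, at -0.53 and -0.55, and 0 of the 10 genes passed an adjusted p of 0.1 in either fit.

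The second comparison asked whether single 3′ ends of these genes differed. Of the 107 sites, 59 had under 100 reads over all libraries. Without the block 0 sites passed an adjusted p of 0.1 in edgeR, where 0.00135% of all sites were called. The DESeq2 Wald test called 1, a site of Apoe, and its share of all sites is not given here. With the block edgeR called the same site, in a fit that called 0.00541% of all sites. An unadjusted p under 0.05 was reached without the block by 14 sites (13.1%), 10 higher and 4 lower in obesity, against 3.14% of all sites (1.72% higher and 1.41% lower). With the block it was reached by 23 sites (21.5%), 13 higher and 10 lower, against 6.09% of all sites (2.79% higher and 3.31% lower). An unadjusted p under 0.01 was reached by 4 sites without the block and 6 with it, against 0.502% and 1.64% of all sites. The groups did not overlap at 9 sites (8.41%), 8 higher and 1 lower in obesity, against 3.11% of all sites. Every site in the table held at least 30 reads in total. Sites with hardly any control reads therefore entered it through their obesity reads, and the counts above include such sites.

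Apoe had 6 sites within 1244 nt on the minus strand of chromosome 1 (Rnor_6.0). The most 3′ of them (chr1:80612867-80613276) held 86.9% of the reads of the gene. Controls had 1546, 2077, 2800 and 1413 reads and obesity libraries 1710, 2417, 2468 and 1330. The groups overlapped, with a log2 fold change of -0.12 (SE 0.33).

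Upstream of it lay 3 minor Apoe sites, at 439, 653 and 719 nt, where every obesity library was above every control library in CPM. The largest, 653 nt upstream (chr1:80613446-80613595), was the site called with the block. Controls had 59, 27, 73 and 51 reads and obesity libraries 222, 240, 191 and 149. All 4 obesity libraries held more reads than any control. Abundance was 34.0 ± 15.6 CPM in control and 118.0 ± 36.6 CPM in obesity (SD, n = 4), a ratio of 3.47. Its share of Apoe reads was 2.52% ± 0.948 in control and 8.64% ± 1.40 in obesity. The log2 fold change was 1.80 (SE 0.40), with an edgeR adjusted p of 0.9999, and 1.83 (SE 0.33) with the block, where the site rose at an adjusted p of 0.0768. The DESeq2 Wald test without the block gave an adjusted p of 0.0656. In the blocked fit without both libraries numbered 1 the edgeR adjusted p was 0.199, and without those numbered 2, 3 or 4 it was 0.0278, 0.00231 and 0.0143. The shares of all sites called in these fits are not given here.

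The Apoe site 439 nt upstream (chr1:80613323-80613420) had 39, 24, 28 and 32 reads in the controls and 136, 59, 56 and 60 in the obesity libraries. Obesity library 1 was the highest. Its log2 fold change was 1.21 (SE 0.41) at an edgeR unadjusted p of 0.0105, and 0.81 without that library. The smallest, 719 nt upstream (chr1:80613606-80613630), had 0, 4, 3 and 7 reads in the controls and 26, 7, 29 and 12 in the obesity libraries. Its highest control was at 4.61 CPM and its lowest obesity library at 4.85 CPM. As it entered through its obesity reads, its lack of overlap is not taken as support for a difference. The 2 most upstream Apoe sites overlapped between groups. The one at 796 nt had 162, 39, 119 and 73 reads in the controls and 134, 26, 88 and 33 in the obesity libraries, with a log2 fold change of -0.66 (SE 0.53).

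**Figure D3:**
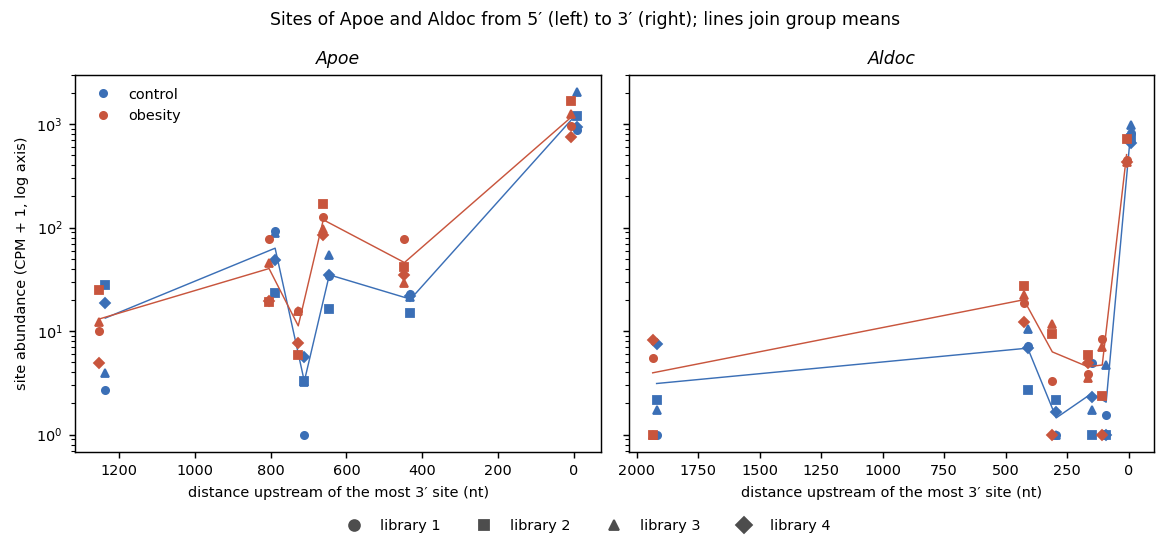
Abundance of each Apoe and Aldoc site as CPM + 1 (vertical log axis) against its distance in nt upstream of the most 3′ site (horizontal axis), with 1 marker per library and lines through the group means. At the Apoe sites 439, 653 and 719 nt upstream and the Aldoc site 418 nt upstream all 4 obesity libraries lay above all 4 controls, while the most 3′ site of each gene overlapped.

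Aldoc had 6 sites on the plus strand of chromosome 10. The most 3′ of them (chr10:65590058-65590111) held 96.5% of the reads. Controls had 1460, 1279, 1344 and 1000 reads and obesity libraries 789, 1041, 851 and 760. In CPM obesity libraries 1, 3 and 4 lay below all controls, at 800.8 ± 140.7 CPM in control and 506.1 ± 143.5 CPM in obesity (SD, n = 4). The log2 fold change was -0.66 (SE 0.27) at an edgeR unadjusted p of 0.0283. The blocked edgeR adjusted p was 0.43. It was 0.026 without both libraries numbered 2, which leaves out the obesity library that lay among the controls.

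The other 5 Aldoc sites had fold changes above 0. The one 418 nt upstream (chr10:65589673-65589758) had 11, 3, 13 and 9 reads in the controls and 31, 38, 42 and 20 in the obesity libraries. All 4 obesity libraries were above all controls, at 5.85 ± 3.20 CPM in control and 19.1 ± 6.36 CPM in obesity (log2 fold change 1.70, SE 0.56, edgeR unadjusted p 0.00819, blocked adjusted p 0.452). The site 302 nt upstream had 0, 2, 0 and 1 reads in control and 4, 12, 21 and 0 in obesity, so the groups overlapped. The remaining 3 held 33 to 34 reads each over all libraries.

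Among the other 8 genes, no leading site had an unadjusted p under 0.05 without the block. Slc1a2 spread its reads over 28 sites. Its site at chr3:92666327-92666380 had 3, 3, 3 and 6 reads in the controls and 38, 21, 18 and 9 in the obesity libraries, with no overlap in CPM (log2 fold change 2.36, SE 0.66, edgeR unadjusted p 0.00298). A further Slc1a2 site, at chr3:92655798-92655840, had 29, 35, 35 and 20 reads in control and 13, 21, 12 and 11 in obesity (log2 fold change -1.14, SE 0.48, edgeR unadjusted p 0.0328). A Gfap site at chr10:90991318-90991367 had 9, 2, 5 and 4 reads in control and 50, 12, 38 and 0 in obesity (log2 fold change 2.14, SE 0.94, edgeR unadjusted p 0.0389). A Gja1 site at chr20:37887339-37887359 had 19, 25, 29 and 4 reads in control and 6, 12, 2 and 5 in obesity (log2 fold change -1.66, SE 0.74, edgeR unadjusted p 0.041). Both overlapped between groups, and none of these sites passed the adjusted threshold in either fit.

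Very small sites of Glul, Aqp4 and S100b had hardly any control reads. The Glul site at chr13:71338785-71338804 had 0, 0, 1 and 0 reads in control and 14, 2, 2 and 13 in obesity. The Aqp4 site at chr18:6769957-6769990 had 0, 0, 2 and 1 reads in control and 16, 6, 4 and 11 in obesity. The S100b site at chr20:13131282-13131311 had 0, 0, 1 and 1 reads in control and 6, 4, 12 and 7 in obesity. All 3 did not overlap in CPM, but they reached the lowest site total of 30 reads only through the obesity libraries. Their lack of overlap is therefore no evidence of a difference, and no fold is given against so few control reads. A second S100b site, at chr20:13130895-13130916, had 0, 1, 2 and 13 reads in control and 4, 14, 21 and 27 in obesity (blocked edgeR unadjusted p 0.00574). This site too reached 30 reads only with its obesity reads, so its p-value is not taken as support for a difference.

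The 1 site that was lower without overlap belonged to Clu. It was the most 3′ of the 5 same-strand Clu sites (chr15:42665829-42665866), with 32, 21, 17 and 15 reads in the controls and 14, 6, 11 and 7 in the obesity libraries (log2 fold change -1.27, SE 0.52, edgeR unadjusted p 0.0287). The leading Clu site, with 89.0% of the reads, lay 7847 nt upstream of it and had 64, 646, 456 and 398 reads in control and 220, 337, 403 and 207 in obesity. Control library 1 was thus low at the leading site and highest at the most 3′ one.

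The leading sites of the remaining genes overlapped between groups. Gfap had 69.1% of its reads at its most 3′ site, with 505, 397, 526 and 347 in the controls and 234, 330, 568 and 274 in the obesity libraries (log2 fold change -0.49, SE 0.32, and -0.52, SE 0.22, edgeR unadjusted p 0.0251 with the block). S100b had 83.1% at a site 1575 nt upstream of its most 3′ one (log2 fold change -0.22, SE 0.36). Glul had 64.8% at its most 3′ site, at 57.2 ± 5.75 CPM in control and 59.6 ± 6.496 CPM in obesity. The leading Glul end thus differed by less than its SD, and the share of reads outside it was 29.7% ± 6.70 in control and 38.5% ± 8.28 in obesity. Gja1 split its reads mainly between sites with 40.6% and 31.0% of them, whose log2 fold changes were -0.09 (SE 0.37) and -0.59 (SE 0.38). With the block the latter was at -0.64 (SE 0.27, edgeR unadjusted p 0.0241). In Slc1a3 the leading site was the most 5′ of 15 same-strand sites, 72652 nt upstream of the most 3′ one. It held 27.7% (log2 fold change -0.68, SE 0.42, and -0.62, SE 0.28, edgeR unadjusted p 0.0352 with the block). In the same gene 2 other sites held 16.6% and 14.6% (0.11, SE 0.40, and -0.37, SE 0.40). The blocked adjusted p of the Gfap, Gja1 and Slc1a3 sites was 0.735 to 0.778 in edgeR. In Aqp4 the leading site held 43.7% of few reads (log2 fold change 0.31, SE 0.77), and sites with 20.9% and 16.02% had -0.01 (SE 1.11) and -1.90 (SE 1.1).

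Of the 10 leading sites 8 had a log2 fold change below 0, with a median of -0.36. Those of Aldoc, Gfap and Slc1a3 had a blocked edgeR unadjusted p under 0.05, all lower. Of 7996 leading sites in the whole table, 301 were higher and 662 lower at such a p. The other 93 same-strand sites of the 10 genes had 49 above 0 and a median of 0.11. Over all 7996 genes with more than 1 site, 45.1% of leading sites and 53.5% of other sites lay above 0, with medians of -0.07 and 0.07. The same order of leading and other sites was therefore present across the table.

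The third comparison asked whether site usage within a gene differed. In diffSpliceDGE of edgeR 0 of 10 genes had an adjusted p under 0.1, where 0% of all genes were called, and 0 of 10 with the block, where 0.0125% were called. An unadjusted p under 0.05 was reached by Aldoc (0.0123), Apoe (0.0161) and Glul (0.032) in edgeR, against 1.39% of genes. Each combines the p-values of the gene's sites in this test. Those of Glul were 0.00399 at chr13:71338785-71338804, with 0, 0, 1 and 0 control reads, and 0.102 or higher elsewhere. As that site entered through its obesity reads, the Glul p is not taken as support for a difference. The smallest of Aldoc were 0.00371 and 0.00409, at 418 and 302 nt upstream. The Aldoc p thus rested in part on the latter site, which entered only with its obesity reads. With the block the genes were Apoe (9.4e-05, adjusted p 0.187), Aldoc (0.000987, adjusted p 0.615) and S100b (0.0104, adjusted p 1), against 2.79% of genes in edgeR. The smallest blocked site p of S100b in this test was 0.00104, at chr20:13130895-13130916, with 0, 1, 2 and 13 control reads. That site reached the table only with its obesity reads, so the S100b p is not taken as support for a difference. The smallest blocked site p-values of Apoe and Aldoc were at the sites 653 and 418 nt upstream.

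The share of reads outside the leading site shows the same data per library. For Aldoc it was 1.28%, 0.544%, 1.47% and 2.15% in the controls and 7.18%, 5.36%, 8.59% and 5.0% in the obesity libraries. The groups did not overlap, which was so in this direction for 1.8% of the 7996 genes, and in the other direction for 1.23%. They rested on 7 to 22 control reads per library and 40 to 80 obesity reads. These included the reads of the site 302 nt upstream, with 0, 2, 0 and 1 in control, which entered only with its obesity reads. How far such sites raised the Aldoc share in obesity was not tested. For Apoe the share was 14.5%, 6.36%, 7.50% and 11.9% in control and 23.8%, 13.2%, 13.5% and 16.4% in obesity. It was higher in 4 of 4 pairs, and the groups overlapped through control library 1. The share was also higher in 4 of 4 pairs for Gfap (26.2% ± 12.3 and 35.4% ± 8.23) and Slc1a3 (69.0% ± 8.19 and 77.1% ± 7.33), and lower in 4 of 4 for Gja1 (63.7% ± 7.87 and 56.2% ± 7.38). How many of all genes had 4 of 4 pairs in the same direction is not given here. Over the 10 genes the mean share was higher in obesity for 7, with a median difference of 4.09 percentage points, beside 51.8% of all genes and 0.383 points.

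**Figure D4:**
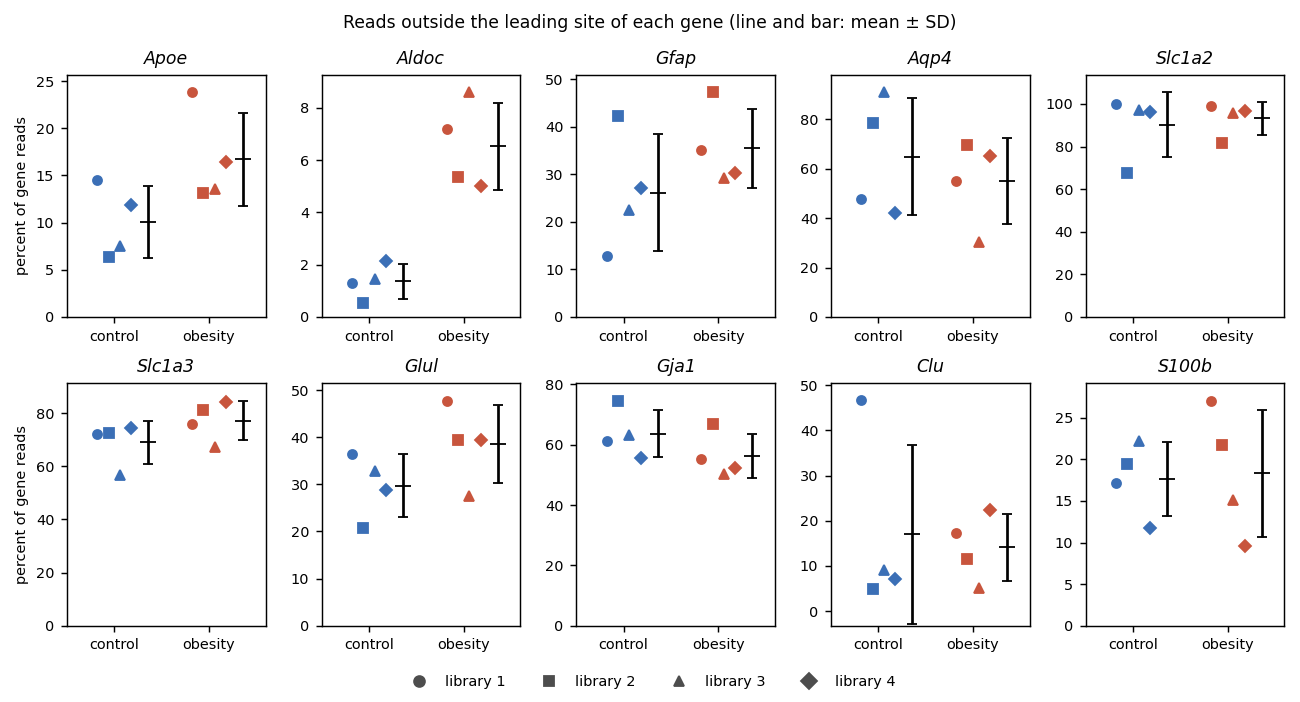
Percent of the reads of each gene that lay outside its leading site (vertical axes) in 4 control and 4 obesity libraries, with the library number as marker shape and the mean ± SD beside each group. The groups were apart for Aldoc, at 0.544% to 2.15% in control and 5.0% to 8.59% in obesity, and overlapped for the other 9 genes.

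Some sites followed the library number and not the diet. An S100b site had 6, 243, 52 and 25 reads in the controls and 12, 141, 80 and 38 in the obesity libraries, with number 2 highest in both. The leading Slc1a2 site, with 8.74% of the reads, had 0, 149, 11 and 9 reads in control and 4, 67, 20 and 11 in obesity. A site assigned to Gja1 on the opposite strand had 0, 0, 51 and 9 reads in control and 0, 0, 157 and 20 in obesity. Its origin is uncertain, as is that of a Slc1a3 opposite-strand site with 285 reads. The same number was highest in both groups, with both its libraries above all others, at 27 of the 107 sites (25.2%) and at 26.0% of all sites.

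**Figure D5:**
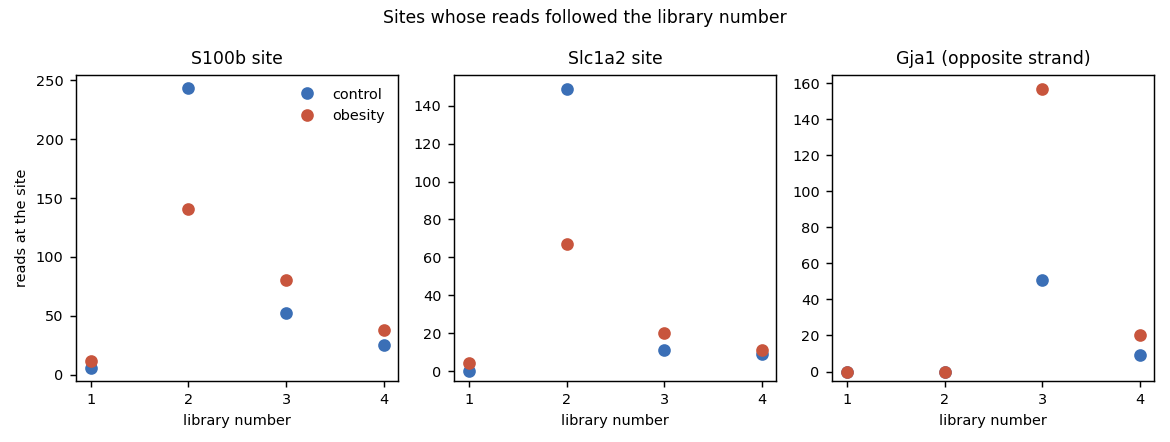
Reads (vertical axes) at an S100b site, the leading Slc1a2 site and an opposite-strand Gja1 site against library number (horizontal axes), with control and obesity libraries in different colours. Number 2 was highest in both groups at the first and second site and number 3 at the last, with 51 and 157 reads there.

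The 10 genes did not vary as a unit over the libraries. Among their 45 pairs Pearson's r of log2 (CPM + 1) ran from -0.80 (Aqp4 and S100b) to 0.77 (Slc1a3 and Gja1), with a median of 0.29, as a description over 8 libraries that share their normalization. The genes most like Apoe, among 6138 with a mean of at least 20 CPM, were Psd (r = 0.957), Dnajc8 (0.948), Get4 (0.928), Lypd1 (0.922) and Matk (0.917). Those most like Aldoc included Gapdh (0.975), Bin1 (0.961), Atp5b (0.959) and Bicd2 (0.959).

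Other astrocyte genes overlapped likewise. Of 23 further astrocyte genes measured, 16 were below 0 and 7 above, 0 had an edgeR unadjusted p under 0.05, and the median was -0.14. With the block 3 did, Cst3, Sparcl1 and Sox9, all lower, where the share of all genes was 4.76% higher and 6.16% lower. Sox9, an astrocyte transcription factor, was at -0.61 (SE 0.36), and Slc6a11, a GABA transporter, at 0.56 (SE 0.44). Of 11 potassium, water and gap junction genes 0 had such a p (median -0.13), with Atp1b2, a sodium pump subunit, at -0.46 (SE 0.24) and Dmd, which encodes dystrophin, at 0.24 (SE 0.21). With the block 2 did, Atp1b2 and Dtna, both lower.

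Among 11 genes of the glutamate-glutamine cycle 1 had an edgeR unadjusted p under 0.05, against 5.12% of all genes. It was Glud1, which encodes glutamate dehydrogenase (log2 fold change -0.57, SE 0.23, edgeR p 0.0214, adjusted p 0.921). With the block 4 did, Glud1, Slc38a1, Slc38a3 and Got2, all lower, where 6.16% of all genes were lower at such a p. Their adjusted p was 0.176 to 0.445 in edgeR. The list median was -0.07, and Slc1a1, a neuronal glutamate transporter, was at 0.63 (SE 0.48). Of 15 lipoprotein and cholesterol genes 0 had such a p (median 0.08), with Apod, which encodes apolipoprotein D, at 0.42 (SE 0.23) and Cyp46a1, the cholesterol hydroxylase of neurons, at -0.47 (SE 0.25). With the block these had such a p, 1 higher and 1 lower. Of 7 reactive astrocyte genes measured 0 had such a p (median -0.09), with Vim at -0.52 (SE 0.38) and Stat3 at 0.35 (SE 0.32). Of 6 tanycyte and ependymal genes 0 did (median -0.19), with Dio2 at -0.22 (SE 0.35) and Lhx2 at 0.70 (SE 1.05). With the block the reactive and tanycyte lists again had 0. No gene of these lists passed an adjusted p of 0.1, with or without the block.

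Markers of other cell types were measured beside them. All 11 oligodendrocyte markers had a log2 fold change below 0 (median -0.18), beside 6121 of all 12255 genes. Their summed levels were 17729 to 23180 CPM in control and 13684 to 21504 CPM in obesity. Mal and Ugt8 had an edgeR unadjusted p under 0.05, against 5.12% of all genes. Mal did not overlap between groups, as was so for 3.45% of all genes. For the 11 neuron markers the sums were 4652 to 7687 CPM and 4279 to 6675 CPM, 5 had a log2 fold change above 0 and 6 below, and the outermost by p were Stmn2 at -0.61 (SE 0.24) and Tubb3 at 0.44 (SE 0.23). Microglia markers (6 measured) summed to 183.5 to 261.7 CPM in control and 107.4 to 230.5 CPM in obesity, with 3 log2 fold changes above 0 and 3 below, Csf1r among the latter at -0.80 (SE 0.36). With the block 3 oligodendrocyte markers had an edgeR unadjusted p under 0.05, all lower. So did 1 neuron marker higher and 2 lower, and 1 microglia marker lower. The shares of all genes there were 4.76% higher and 6.16% lower. The 10 astrocyte genes themselves summed to 4912 to 7605 CPM and 4559 to 6647 CPM. Precursor (5 measured) and endothelial (5 measured) markers had medians of 0.01 and 0.14. Of 5 choroid plexus markers only Ttr was measured, at 0 to 1.52 CPM in control. In obesity it was at 98.0 CPM in library 4 and at 0 in the others. The part of cell makeup in the values of the 10 genes was not tested.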

How the data were processed

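WTTS-seq libraries of hypothalamic total RNA from 4 control and 4 obesity rats were analysed. The deposited table holds the authors' raw read counts per polyadenylation site, not normalized, with Rnor_6.0 coordinates and gene symbols. Bowtie2 2.2.3 is listed in the submitters' processing notes; read clustering, gene assignment and cutoffs are not given in the sources used here. The lowest site total was 30 reads. Reads primed at internal A-rich stretches can be counted as 3′ ends, and no molecular identifiers are described, so counting error is a lower limit. Sites were not classed as exon, intron or UTR.

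Of the rows, 1 without a site was dropped, and 273 sites with a mark in place of a symbol were treated as without a gene. Sites on the strand with most reads were summed per gene (12255 genes). Sites and genes were tested over the whole table with edgeR 4.0.16 (R 4.3.3, limma 3.58.1; TMM, robust quasi-likelihood F test, Benjamini-Hochberg, adjusted p under 0.1) and site usage with diffSpliceDGE (Simes). SE is the absolute log2 fold change over the square root of F. Gene and site CPM were scaled separately. Alternatives were the replicate block, DESeq2 1.42.0 size factors and Wald test, filterByExpr, both strands summed, and leaving out libraries. Scripts were tested on simulated data.

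Same-numbered libraries correlated in their deviations from the group means at r 0.264 to 0.377, others at -0.199 to -0.0391. As all 4 pairs were over 0.1, the numbers were taken as pairs, although the labels do not say what they share.

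All 10 genes were named. Sites were named as leading, holding 10% or more of the gene's reads, having an unadjusted p under 0.01, or lying on the opposite strand with over 100 reads. Sites at an unadjusted p under 0.05 or without overlap, and an S100b site that followed library number, were added after their values were seen. From each list the higher and lower gene with the smallest p was chosen. For Apoe and Aldoc the 5 genes with the highest r were chosen. Some genes that these rules chose are not reported here. The members and lists were chosen with earlier results of these data known.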

Additional observations from a re-analysis of the deposited data

Results flagged for a closer look

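Of 94 groups of 4 libraries checked, 14 held a library far from the other 3 (Dixon's test, 5% expected by chance). For gene totals these were Slc1a2 in control library 4 (184.7 CPM, others 300.3 to 309.1) and Gja1 in obesity library 3 (269.5 CPM, others 181.8 to 196.0). For the percent of reads outside the leading site they were Slc1a2 in control library 2 (67.75%, others 96.3% to 100%), Slc1a3 in control library 3 (56.8%, others 72.03% to 74.52%) and Clu in control library 1 (46.67%, others 5.0% to 9.163%).

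For single sites, the leading Aldoc site was at 721.0 CPM in obesity library 2 (others 426.1 to 446.7), and the leading Glul site at 69.25 CPM in the same library (others 54.94 to 57.19). The Gja1 site with 10.1% of the reads was high in library 2 of both groups, at 38.54 CPM in control (others 15.2 to 19.11) and 44.32 CPM in obesity (others 7.591 to 10.76). The opposite-strand Gja1 site was high in library 3 of both groups, at 37.44 CPM in control (others 0 to 5.929) and 79.45 CPM in obesity (others 0 to 11.21). The Gja1 site with 31.0% of the reads was at 105.7 CPM in control library 3 (others 61.36 to 65.58). The leading Slc1a2 site was at 85.72 CPM in control library 2 (others 0 to 8.075). A small Glul site had its 1 control read in library 3 (0.7341 CPM, others 0).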

How the results depend on the processing

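Gene counts past an adjusted p of 0.1 stayed at 0 of 10 when any single library was left out, under DESeq2 size factors, the DESeq2 Wald test, filterByExpr, summing both strands and the replicate block. With the replicate block and both libraries of a number left out they ranged from 0 to 1 (Clu without number 1, Aldoc without number 2). Site counts, 0 in edgeR, were 1 under the DESeq2 Wald test and 1 with the replicate block, and ranged from 0 to 2 when a number was left out of it. Genes of the other lists ranged from 0 to 10 there, with 10 without number 2. The shares of all genes and of all sites called in these fits are not given here, so their counts have no baseline. Site usage stayed at 0 under all alternatives run. The replicate block gave 23 sites an unadjusted p under 0.05 and filterByExpr 7, having kept 53 of the 107 sites.

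Gene directions turned on leaving out a library for Apoe (log2 fold changes of -0.1221 to 0.3422), Slc1a2 (-0.1303 to 0.1153), Slc1a3 (-0.2269 to 0.03008) and S100b (-0.365 to 0.02504). So did those of the leading sites of Apoe (-0.3546 to 0.2247), Aqp4 (-0.03925 to 1.166), Gja1 (-0.3567 to 0.07276), Glul (-0.01924 to 0.1034), S100b (-0.4155 to 0.02834) and Slc1a2 (-1.998 to 1.802). So did those of the 20.9% Aqp4 site (-1.538 to 0.4856), the 10.2% Gfap site (-0.5187 to 0.3869), the 16.6% Slc1a3 site (-0.0896 to 0.2811), the 10.1% Gja1 site (-1.224 to 0.07592) and the opposite-strand sites of Gja1 (-1.47 to 3.528) and Slc1a3 (-0.2109 to 0.7903).

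With the replicate block and a number left out, values turned for Apoe (-0.04195 without number 1, -0.1122 without 2), Slc1a2 (-0.03831 without 4), Slc1a3 (0.02009 without 3), the leading sites of Apoe (0.1075 without 3), Clu (0.05913 without 4), Gja1 (0.05115 without 4) and Slc1a2 (0.7599 without 2, 0.02941 without 4), the 10.2% Gfap site (0.01084 without 1), the 16.6% Slc1a3 site (-0.005471 without 1) and its opposite-strand site (-0.1006 without 3). With all libraries, the 20.9% Aqp4 site was at 0.0301 under DESeq2 size factors and 0.04764 under the Wald test, the 10.2% Gfap site at 0.01576, 0.01744 and, under filterByExpr, 0.006028, and the leading Slc1a2 site at 0.02336 with the replicate block. The causes were not tested. Precision was lowest at the 59 sites under 100 reads.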
